A study of Mus musculus with 16 samples.

Results

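The interferon-stimulated genes considered here were 39 mouse genes that respond to interferon, given by symbol and matched to the identifiers of the deposited table through the mm10 annotation. All 39 were found among the 54453 genes of the table, of which 21872 are protein-coding. Their measured values played no part in the rule that lists them, although the list was drawn up with earlier results of these data known. The values come from total RNA-sequencing of 16 immortalised mouse embryonic fibroblast (MEF) lines. MEF-1 and MEF-2 are parental lines from different E13.5 embryos of the C57BL/6J strain that were immortalised by serial passaging through crisis, and 7 clonal lines were grown from single sorted cells of each. None of the 16 lines was treated with interferon, a virus or any other agent according to the labels, and all were grown to the same confluency. A clonal line is 1 clone and 1 library, so the 7 clonal lines served as the replicates of their set. P-values measure the spread between these clonal lines. Each set stands for 1 embryo, male for MEF-1 and female for MEF-2. A difference between sets thus cannot be told apart from one of embryo, sex, karyotype or history in culture. From read coverage, the paper reports aneuploidy of some chromosomes in at least part of the lines.

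Interferons are secreted proteins that cells release when they sense viral RNA or stray DNA. They bind receptors on the same or on neighbouring cells, and the receptors' kinases phosphorylate STAT2. It joins IRF9 in a complex that enters the nucleus and binds a short promoter sequence, the interferon-stimulated response element, to switch on a large set of genes. Fibroblasts both make interferon and respond to it, and they keep a low tonic expression of many of these genes without infection. The 39 genes were sorted by role into 4 cytoplasmic sensors, 4 transcription factors, 3 genes of the ISG15 system and its feedback, 14 direct antiviral effectors, 6 other induced genes, 5 interferon-inducible GTPases and 3 genes of antigen processing.

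The deposited values are regularised log (rlog) values, log2 counts scaled for library size whose deviations from a gene's average are pulled in, most of all where reads are few. They carry no counts, so the depth of the libraries is unknown. Over 2855 genes with an average below −2.2, close to free of reads, the median of a line ran from −2.285 to −2.279, which ordered the lines by size factor only. Fibroblast genes stood high in every line, with Col1a1 at 20.3 to 21.4 and Vim at 17.8 to 18.5, apart from Thy1, which ran from 2.72 to 10.2. Of the blood cell markers, Ptprc stayed between 1.56 and 2.94, Adgre1 at or below −1.83 and Cd3e at or below −2.26, while Csf1r ran from 4.56 to 8.33. Bulk RNA cannot tell a lower share of expressing cells from less RNA per cell.

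Levels differed widely between the 39 genes. Per kilobase of exon, Ifi27 stood highest, with an average of 11.1 on the log2 scale, above 88.9% of the 15285 protein-coding genes with an average above 0. Ifit3, the tetherin gene Bst2, Irgm1 and Ifit2 followed, at length-corrected averages of 9.86, 9.84, 9.57 and 9.56. At the other end stood 2′-5′-oligoadenylate synthetases, which activate RNase L in infected cells. Oas1g, Oas2 and Oas3 had averages of −1.74, −0.85 and −0.94 before correction for length, and they lay within 0.05 of their own lowest value in 13, 9 and 11 of the 16 lines. At such values a low level cannot be told from no reads. Oas1g ran from −1.77 to −1.62 in all clonal lines, Oas2 from −0.94 to −0.44 and Oas3 from −1.02 to −0.64, and these 3 genes were left out of the fit described below. Oas1a, at 0.47 to 1.10 in the clonal lines, lay at its lowest value in 7 lines. Mx2 is annotated as a polymorphic pseudogene and so was left out of the fit of protein-coding genes, which leaves 36 genes with an average above 0 and 35 in the fit.

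Some of these genes share sequence with close relatives, and how the reads were divided between them is not known. Ifit3 shares 61.8% of its 31-base words with Ifit3b, Oas1a shares 68.7% with Oas1g, and Igtp shares 15.9% with Irgm2. Smaller shares included those of Rtp4 (12.5% with Gm45338), Gbp7 (10.8% with Gm43802), Isg15 (10.2% with AC151275.1), Ifit1 (9.16% with Ifit1bl2) and Mx1 (7.22% with Mx2). Psmb9 and Tap1 have exons that overlap on opposite strands, and Ifi35 and Psmb8 share words with antisense genes. The paper names a directional library kit, but whether strand was used in quantification is not given in the sources used here. Values of these genes are uncertain to that extent.

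Promoters of many of the 39 genes carry the response element. Its core, GAAA-NN-GAAA on either strand, was looked for from 250 bases before to 50 bases after the transcription start in the promoter sequences of RefSeq (build GRCm38.p6), with N for any base, and 30 of the 39 genes had a window. The core was present in 16 of the 30 (53.3%), against 3.44% of all 32851 promoters of the same length and 3.99% of the 27025 genes they belong to. With a further C at its end (GAAA-NN-GAAAC) the element was present in 13 of 30 genes (43.3%), against 0.819% of all promoters and 0.944% of genes. In 24 of the 30 windows the first 25 transcribed bases were found in a GENCODE transcript of the gene. A match to these letters is not a measured binding site, and a window without one says only that the letters are not there. Where GAAA repeats follow each other, as in Isg15, Irgm1 and Bst2, several cores overlap, and every longer element holds a core.

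The following stretches come from genes whose values are described below and are written along the strand of the gene with the core in capitals. The core reads GAAA-NN-GAAA in the forward direction and TTTC-NN-TTTC in the reverse. Isg15 lies on the minus strand (chr4:156200871-156200900) and its core begins at −72 bases from the transcription start. In Ifit1 (chr19:34640794-34640823, plus strand) the core begins at −85 and in Ifit3 (chr19:34583397-34583426, plus strand) at −122. Both have a further, separate core that is not printed, at −104 in Ifit1 and at −156 in Ifit3. In Igtp (chr11:58199512-58199541, plus strand) it begins at −34 and in Gbp2 (chr3:142620594-142620623, plus strand) at −59. In Irgm1 (chr11:48871425-48871454, minus strand) it begins at −24 and in Rsad2 (chr12:26456553-26456582, minus strand) at −120. The stretches of Oas1a (chr5:120907520-120907549, minus strand) and Oas1g (chr5:120887606-120887635, minus strand) are the same in all letters.
Isg15: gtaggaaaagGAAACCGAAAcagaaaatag
Ifit1: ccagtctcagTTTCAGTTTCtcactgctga
Ifit3: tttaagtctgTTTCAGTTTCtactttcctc
Igtp: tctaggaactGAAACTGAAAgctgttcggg
Gbp2: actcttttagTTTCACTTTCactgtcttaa
Irgm1: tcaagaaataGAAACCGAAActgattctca
Rsad2: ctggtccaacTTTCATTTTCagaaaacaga
Oas1a: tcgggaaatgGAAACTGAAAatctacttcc
Oas1g: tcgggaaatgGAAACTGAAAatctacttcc

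Among the 7 clonal lines of MEF-1, the interferon-stimulated genes largely shared their highest and lowest lines. Clonal line 1 held the highest value in 21 of the 36 genes with an average above 0, and line 2 in 8. Line 6 was highest in 6 genes and line 3 in 1, while lines 4, 5 and 7 were highest in 0. Lines 5, 4 and 7 held the lowest value in 15, 12 and 7 genes, and in 13.86%, 10.94% and 13.89% of all genes. Over all 15285 genes of the fit, line 1 was highest in 15.96% and line 2 in 17.66%. Lines 1 and 2 held the top pair of values in 24 of 36 genes (66.7%), against 8.56% of all genes, a pair of lines that was picked after the values had been seen. These lines carry no label that sets them apart from the other 5. By this median over the lowest genes, line 1 had the second largest size factor of the 16 and line 2 the eighth, and line 5, with the lowest value in 15 genes, had the fourth.

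**Figure D1:**
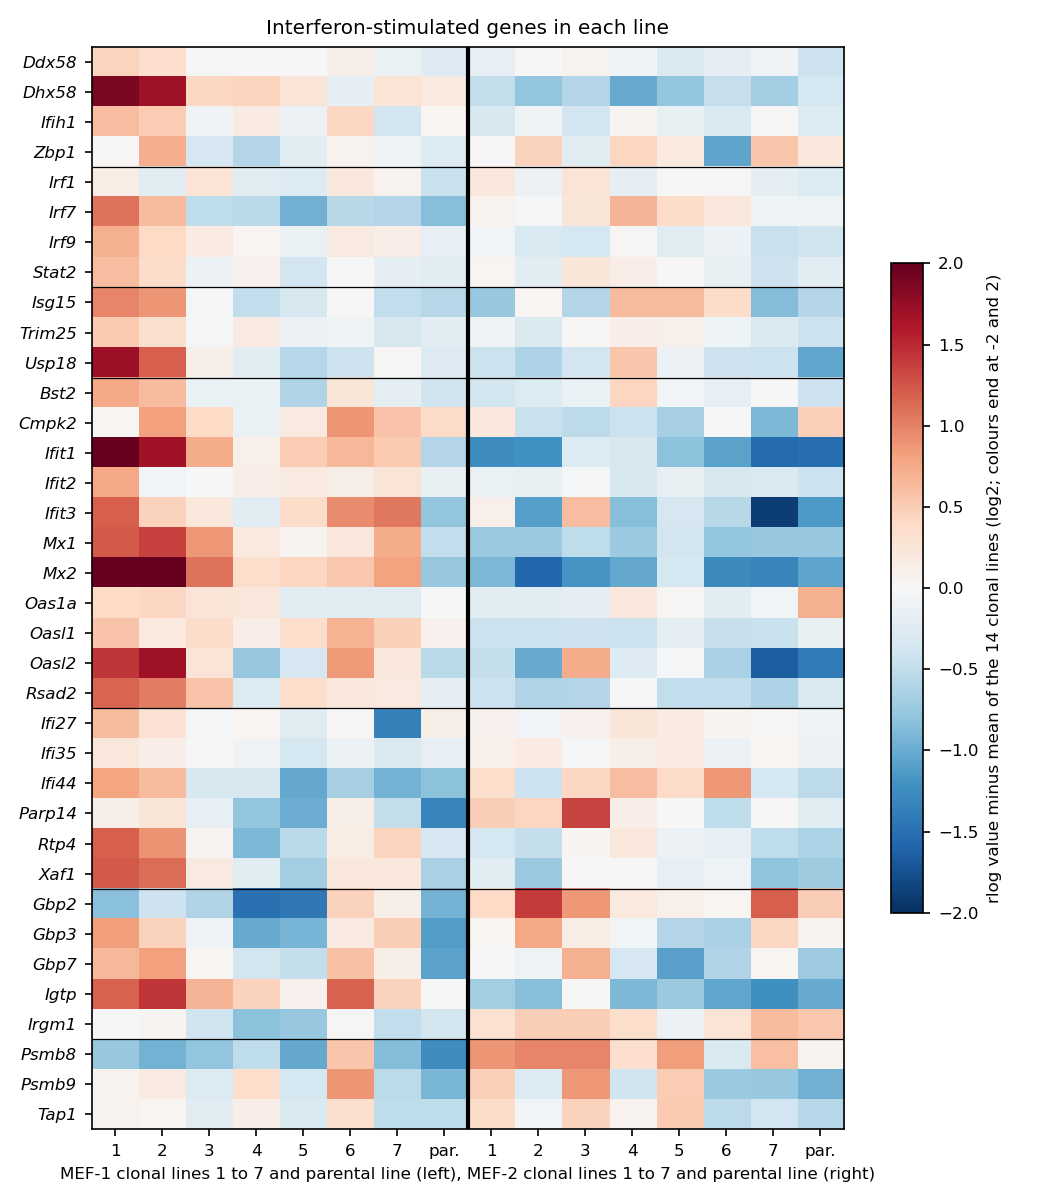
Each row is 1 of the 36 interferon-stimulated genes with an average above 0, ordered by role, and each column is 1 line, with colour giving the deviation of the rlog value from the average of the 14 clonal lines (log2, colours end at −2 and 2). The MEF-1 columns 1 and 2 are the darkest red across most roles, with Ifit1 at 10.04 and 9.43 in these lines, whereas Gbp2, Irgm1 and Psmb8 are redder in MEF-2.

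The transcription factor Irf7, which amplifies interferon production, stood at 7.50 and 7.05 in MEF-1 lines 1 and 2 and between 5.45 and 5.91 in lines 3 to 7. No MEF-1 line filled the gap between these values. Usp18, the protease that removes ISG15 from proteins and restrains the interferon receptor, stood at 7.58, 7.07, 6.00, 5.66, 5.29, 5.45 and 5.89 in lines 1 to 7. Its highest line was thus 2.29 above its lowest on the log2 scale, a 4.87-fold range of rlog values. Isg15, the ubiquitin-like modifier itself, stood at 8.04 and 7.94 in lines 1 and 2 and reached 7.07 at most in the others. The sensor Dhx58 (LGP2) had 8.61 and 8.42 in these lines and at most 7.17 in lines 3 to 7. Oasl2, a synthetase-like antiviral protein, covered the widest range, from 5.57 in line 4 to 8.02 in line 2. Xaf1, a pro-apoptotic induced gene, stood at 8.42 and 8.31 in lines 1 and 2 and ran from 6.50 to 7.40 in lines 3 to 7. The mitochondrial protein gene Ifi27 had 12.2 and 11.9 in lines 1 and 2 and also a low value in line 7, at 10.3, against 11.4 to 11.6 in lines 3 to 6.

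Other genes did not follow this order. Irf1, which drives many genes of the type II response, was highest in line 3 (11.3) and stood at 11.2 in line 1 and 10.9 in line 2. The immunoproteasome subunit Psmb8 stood at 8.20 in line 6 and between 6.62 and 7.15 in the other 6. Gbp2, a guanylate-binding GTPase that attacks the vacuoles of pathogens, was highest in lines 6 and 7, at 10.3 and 9.94. Ifit2 was set apart in line 1 alone, at 12.4, against 11.5 in line 2.

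**Figure D2:**
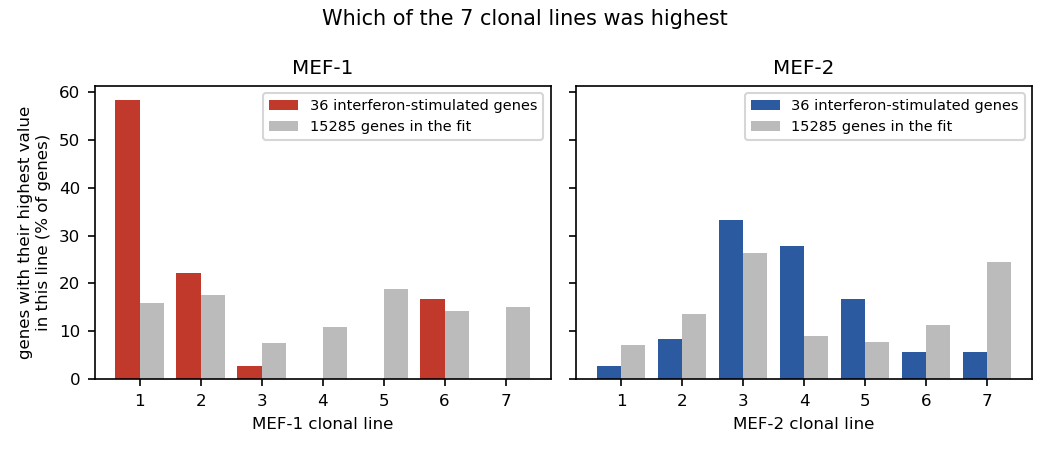
For each clonal line (horizontal axis) bars give the percentage of genes whose highest value of the 7 lines of that set lay in this line, coloured for the 36 interferon-stimulated genes and grey for the 15285 genes of the fit. MEF-1 line 1 reaches 21 of 36 genes, and no MEF-2 line exceeds 12 of 36.

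Pairs of these genes were positively correlated across MEF-1 clones. For the 630 pairs of the 36 genes the median Pearson's r over the 7 MEF-1 clonal lines was 0.621 (quartiles 0.268 and 0.818), and 90.3% of pairs were above 0. Pairs of all genes had a median of 0.0016. All pairs share the same 7 libraries, so that r is a description, and in lines 3 to 7 alone the median was 0.349. Xaf1, Isg15 and Bst2 had the highest median r with the other genes, at 0.83, 0.82 and 0.81. Psmb8 had −0.01, and Cmpk2, Oasl1, Gbp2 and Irf1 had 0.19, 0.19, 0.22 and 0.23. Over the 7 MEF-2 clonal lines the median r was 0.167, with 60.95% of pairs above 0 and a median of 0.014 for all genes. In MEF-2 Trim25, the ubiquitin ligase that activates the sensor RIG-I, and Stat2 had the highest median r, at 0.51 and 0.46.

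**Figure D3:**
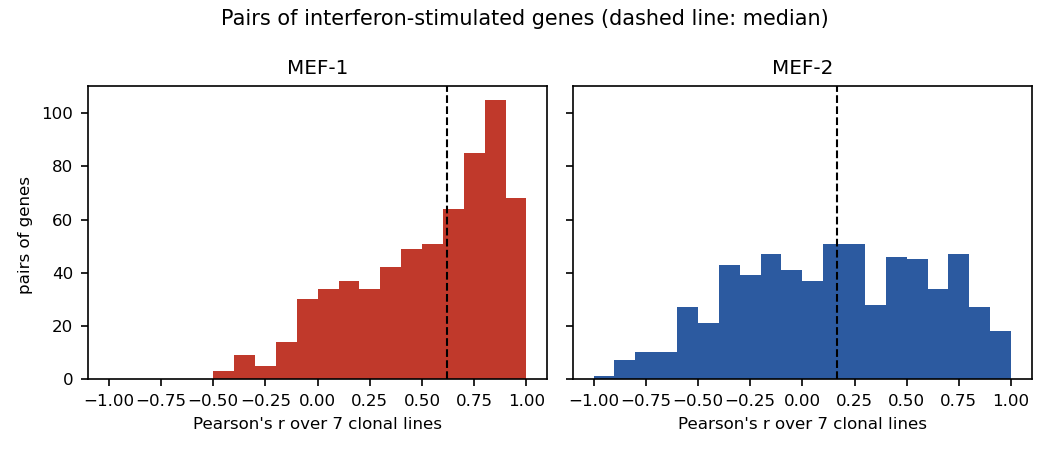
Histograms of Pearson's r over the 7 clonal lines of MEF-1 (left) and MEF-2 (right) for the 630 pairs of interferon-stimulated genes, with the dashed line at the median. The MEF-1 pairs gather to the right with a median of 0.621, and the MEF-2 pairs spread around a median of 0.167.

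In MEF-2 the highest value was held by line 3 in 12 genes, by line 4 in 10 and by line 5 in 6, and line 7 was lowest in 15 and line 6 in 10. Over all genes, line 3 was highest in 26.39%, line 4 in 9.11% and line 5 in 7.74%, and line 7 was lowest in 19.91% and line 6 in 16.19%. Isg15 stood at 7.69 in lines 4 and 5 and 7.43 in line 6, and at 6.30, 7.10, 6.48 and 6.19 in lines 1, 2, 3 and 7. Usp18 was highest in line 4, at 6.42, and lay between 5.25 and 5.75 in the others. Ifit3 stood at 10.9, 9.68, 11.4, 9.93, 10.4, 10.2 and 8.90 in MEF-2 lines 1 to 7, the widest range of the set. Oasl2 followed, from 4.67 in line 7 to 7.07 in line 3. The proteasome subunit Psmb9 stood at 6.79, 7.18 and 6.83 in lines 1, 3 and 5 and between 5.55 and 6.04 in the other 4. Its neighbour Tap1, the peptide transporter, was also highest in lines 5, 3 and 1, at 10.6, 10.5 and 10.4, and the exons of these genes overlap.

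Spread between clonal lines was larger in MEF-1. The SD over 7 clonal lines had a median of 0.496 over the 36 genes in MEF-1 and of 0.308 in MEF-2. Over all genes the medians were 0.199 and 0.164, and over 3734 genes of like average (6.28 to 10.33) they were 0.248 and 0.208. The SD was larger in MEF-1 for 29 of 36 genes (80.6%), and this was so for 63.4% of all genes. Without lines 1 and 2 the median SD of MEF-1 fell to 0.305. These lines, picked after the values had been seen, held the top pair of MEF-1 values in 24 of 36 genes. Leaving them out lowers the SD by construction, so the fall is no independent result. The largest SDs in MEF-1 were those of Oasl2 (0.895), Usp18 (0.859), Mx2 (0.812) and Dhx58 (0.783), and in MEF-2 those of Ifit3 (0.819), Oasl2 (0.755), Psmb9 (0.656) and Isg15 (0.652).

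Between the sets, 13 of the 35 genes in the fit differed between the 7 MEF-1 and the 7 MEF-2 clonal lines (limma, Benjamini-Hochberg adjusted p under 0.05 over 15285 genes). That is 37.1%, below the 56.1% of all genes that differed. MEF-1 was higher in 10 (28.6%), where the share of all genes was also 28.6%, and MEF-2 in 3 (8.57%), against 27.5% of all genes. Without MEF-1 line 1 the count with MEF-2 higher was 5 of 35, with Irf7 and Ifi44 added, against 4020 of all 15285 genes. Line 1 held the highest MEF-1 value of both added genes. Leaving it out lowers their MEF-1 mean by construction, so these added calls are no independent result. The 10 that were higher in MEF-1 were 7 antiviral effectors with Dhx58, Irf9 and Igtp, and the 3 that were higher in MEF-2 were Gbp2, Irgm1 and Psmb8. The values of 5 genes did not overlap between the sets, all with MEF-1 higher (13.6% of all genes), and in 0 genes was every MEF-2 line higher (12.3% of all genes). The median difference was −0.187 (MEF-2 minus MEF-1) over the 35 genes and −0.004 over all genes, and the median absolute difference was 0.411 against 0.302.

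**Figure D4:**
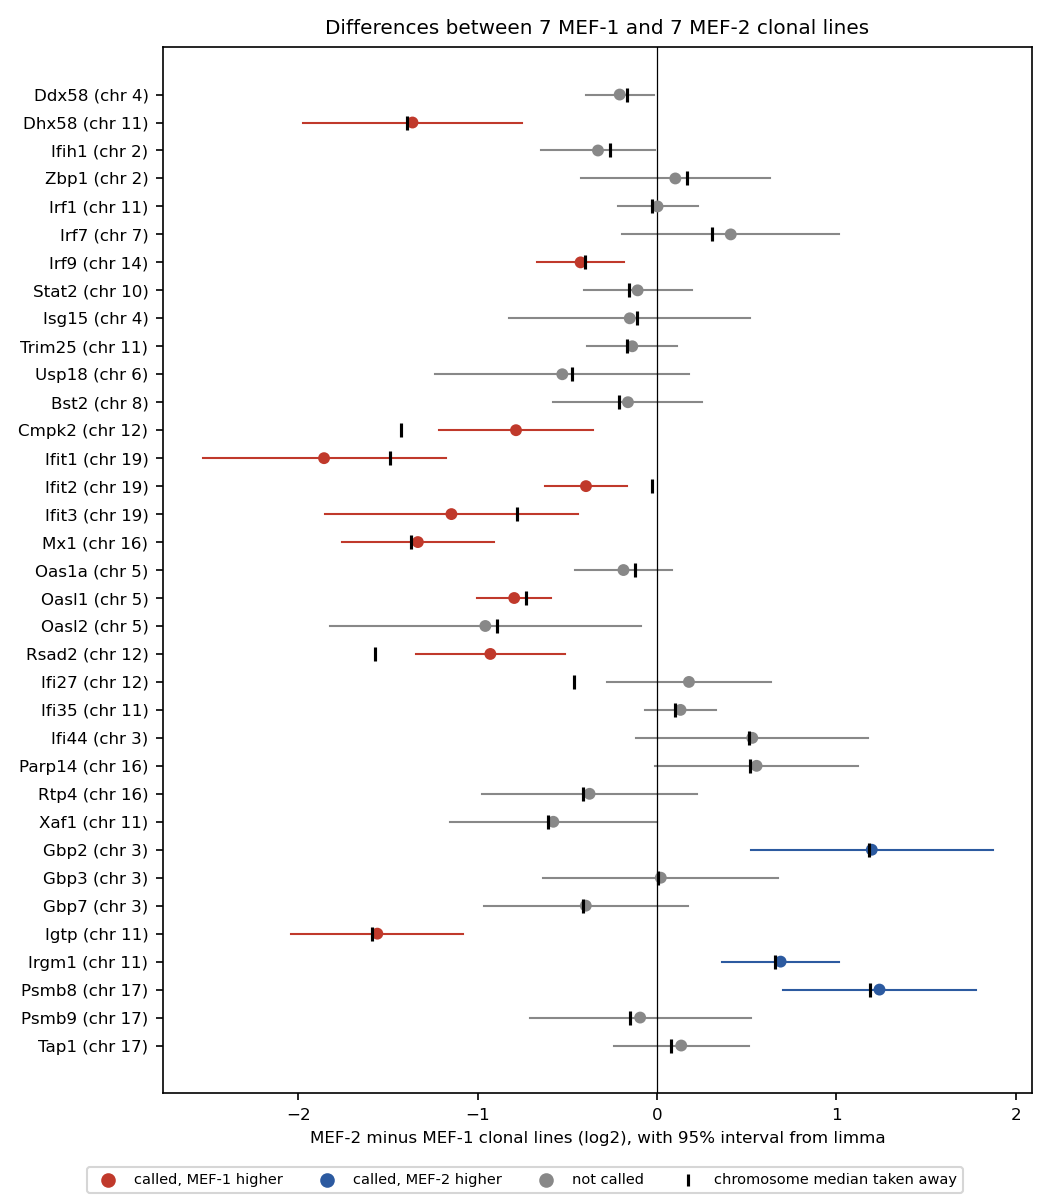
Differences between the mean rlog values of the 7 MEF-2 and the 7 MEF-1 clonal lines (log2, MEF-2 minus MEF-1) for the 35 interferon-stimulated genes in the fit, with the 95% interval from limma, coloured by call, and a black tick for the difference once the median of the chromosome is taken away. Ifit1 is the furthest to the left at −1.86 and Psmb8 the furthest to the right at 1.24, and the ticks of Rsad2, Cmpk2 and Ifit2 stand well away from their points.

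Ifit1 binds viral RNA that lacks the methyl marks of host caps. It stood at 10.04, 9.43, 8.48, 7.84, 8.26, 8.40 and 8.27 in MEF-1 lines 1 to 7, and at 6.50, 6.54, 7.47, 7.42, 6.93, 6.67 and 6.20 in MEF-2 lines 1 to 7. All MEF-1 lines were above all MEF-2 lines. The difference was −1.86 ± 0.32 (SE, n = 7 and 7), or 3.62-fold of rlog values, with an adjusted p of 0.00018 by limma. Ifit2 and Ifit3, of the same family, had differences of −0.40 ± 0.11 and −1.15 ± 0.33 (SE), adjusted p 0.00526 and 0.00851, with overlapping values. All 3 lie on chromosome 19, whose median over expressed genes was 0.368 lower in MEF-2 than in MEF-1. With that median taken away Ifit1 kept −1.49. Ifit2 was left with −0.03 (adjusted p = 0.834) and Ifit3 with −0.78 (adjusted p = 0.0638), so that neither passed the test. The paper lists the chromosome of these genes among the aneuploid ones. Whether copy number accounts for the lower median was not tested.

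Rsad2 (viperin) and Cmpk2, neighbours on chromosome 12, went the other way to their chromosome. Rsad2 stood at 3.24, 3.09, 2.64, 1.80, 2.43, 2.30 and 2.26 in MEF-1 lines 1 to 7, and from 1.45 to 2.03 with a median of 1.58 in MEF-2, where 3 clonal lines lay within 0.05 of its lowest value. The sets overlapped only through MEF-1 line 4. The differences were −0.93 ± 0.19 for Rsad2 and −0.79 ± 0.20 for Cmpk2 (SE, adjusted p 0.000931 and 0.004, limma), whereas the chromosome median was 0.641 higher in MEF-2. With it taken away the differences were −1.57 and −1.43. Ifi27, on the same chromosome, had a difference of 0.18 before and −0.46 after, and passed the test in neither. The paper lists this chromosome as aneuploid too, and the part of copy number in its median was not tested.

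Mx1, a dynamin-like GTPase that blocks influenza viruses in mice with an intact gene, stood at 3.52, 3.66, 3.15, 2.48, 2.34, 2.51 and 3.03 in MEF-1 lines 1 to 7. In MEF-2 it ran from 1.49 to 1.92 with a median of 1.55, and 3 of those lines lay at its lowest value. The sets did not overlap, and the difference was −1.33 ± 0.20 (SE, adjusted p = 5.23e-05, limma). Mx2, its relative, stood at 6.53, 6.30, 5.27, 4.54, 4.61, 4.73 and 4.99 in MEF-1, and ran from 2.62 to 3.84 with a median of 3.00 in MEF-2. In a fit over all annotated genes with an average above 0, added after the data had been seen, its difference was −2.18 ± 0.31 (SE, adjusted p = 4.1e-05), the largest of the 36 genes. Oasl1 ran from 1.73 to 2.30 in MEF-1 and from 1.15 to 1.41 in MEF-2, without overlap, and differed by −0.80 ± 0.10 (SE, adjusted p = 6.96e-06), but 6 of the 7 MEF-2 lines lay at its lowest value. Differences of genes at that level understate the ratio of the underlying reads.

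Dhx58, a regulator of the RNA sensors RIG-I and MDA5, stood at 8.61, 8.42, 7.15, 7.17, 6.98, 6.54 and 7.00 in MEF-1 lines 1 to 7, and at 6.26, 5.94, 6.14, 5.72, 5.96, 6.26 and 6.04 in MEF-2. No value overlapped, and the difference was −1.36 ± 0.29 (SE, adjusted p = 0.00095, limma). The other sensors did not pass the test. Ddx58 (RIG-I) had means of 12.2 ± 0.215 in MEF-1 and 12.0 ± 0.123 in MEF-2 (SD, n = 7 and 7, adjusted p = 0.0585). Ifih1 (MDA5) had a difference of −0.33 with an adjusted p of 0.0713, and the Z-nucleic acid sensor Zbp1 had 0.10 with an adjusted p of 0.745.

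Of the transcription factors, Irf9 alone passed the test, with 11.2 ± 0.271 in MEF-1 and 10.8 ± 0.170 in MEF-2 (SD, n = 7 and 7, difference −0.43, adjusted p = 0.0053, limma). Irf7 had a difference of 0.41 (95% interval −0.19 to 1.02, adjusted p = 0.23). Without MEF-1 lines 1 and 2, picked after the values had been seen, it was 0.84. These lines held the top pair of Irf7 values in MEF-1, so leaving them out lowers that mean by construction. Irf1 and Stat2 had 0.003 and −0.11 (95% intervals −0.22 to 0.23 and −0.41 to 0.19). In the ISG15 group, Isg15, Trim25 and Usp18 had differences of −0.15, −0.14 and −0.53, and none passed the test. The 95% intervals were −0.83 to 0.52 for Isg15 and −1.24 to 0.18 for Usp18.

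The interferon-inducible GTPases differed in both directions. Igtp (Irgm3) stood at 8.46, 8.72, 7.97, 7.75, 7.38, 8.46 and 7.76 in MEF-1 lines 1 to 7, and at 6.60, 6.44, 7.28, 6.39, 6.56, 6.25 and 6.07 in MEF-2, without overlap (difference −1.56 ± 0.22 SE, adjusted p = 3.73e-05, limma). Gbp2 was higher in MEF-2, at 10.2, 11.2, 10.7, 10.0, 9.92, 9.86 and 11.0, than in MEF-1, at 8.99, 9.40, 9.22, 8.32, 8.39, 10.3 and 9.94 (difference 1.20 ± 0.32 SE, adjusted p = 0.00481). MEF-1 lines 6 and 7 overlapped with the lower MEF-2 lines. Irgm1, which regulates the other family members, ran from 11.3 to 12.2 with a median of 11.7 in MEF-1 and from 12.0 to 12.7 with a median of 12.4 in MEF-2 (difference 0.69 ± 0.15 SE, adjusted p = 0.0015). Gbp3 and Gbp7 did not pass the test, with differences of 0.02 and −0.40.

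In antigen processing, Psmb8 was higher in MEF-2, at 8.54, 8.64, 8.63, 7.99, 8.48, 7.36 and 8.26 in lines 1 to 7, with MEF-1 line 6 (8.20) inside that range and the other MEF-1 lines below it. The difference was 1.24 ± 0.25 (SE, adjusted p = 0.000767, limma). Psmb9 and Tap1 differed by −0.09 and 0.13, within the spread between clonal lines. None of the 6 other induced genes passed the test. Their differences ran from −0.58 for Xaf1 to 0.55 for Parp14, with −0.38 for Rtp4, 0.13 for Ifi35, 0.18 for Ifi27 and 0.53 for Ifi44. Of the effectors not yet named, Bst2 had −0.16, Oasl2 −0.96 (adjusted p = 0.0573) and Oas1a −0.19. Without MEF-1 lines 1 and 2, chosen after the values had been seen, 17 of 35 genes passed (48.6%, against 52.8% of all genes). In that fit MEF-1 was higher in 10 (against 27.5% of all genes) and MEF-2 in 7 (against 25.3%). The 4 added were Irf7, Ifi44, Ifi35 and Parp14. Lines 1 and 2 held the top pair of MEF-1 values in all 4. Leaving these lines out lowers the MEF-1 mean by construction, so the added calls are no independent result.

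**Figure D5:**
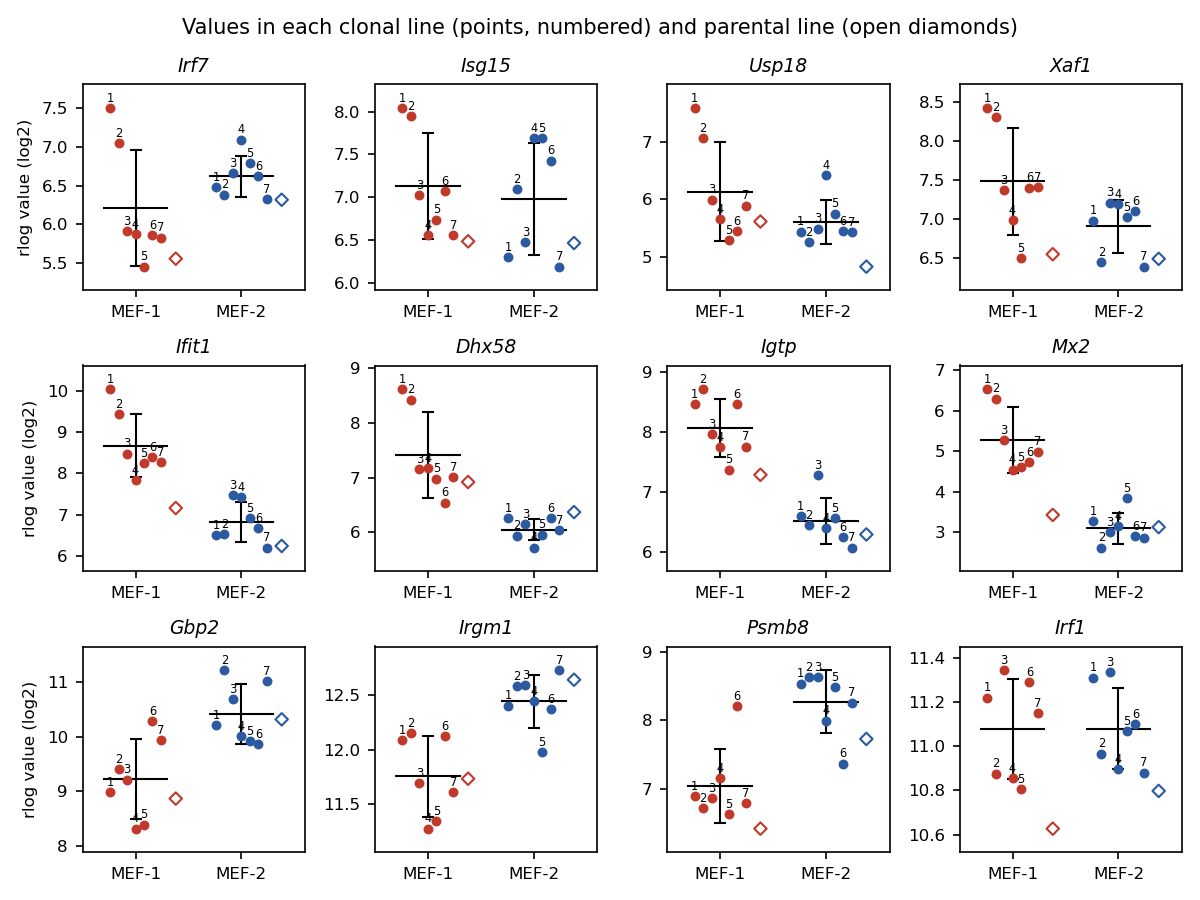
The rlog value (log2) of 12 interferon-stimulated genes in each clonal line of MEF-1 (red) and MEF-2 (blue), numbered by line, with the mean and SD of the 7 lines in black and the parental line as an open diamond. For Ifit1, Dhx58, Igtp and Mx2 the sets do not overlap, for Irf7, Isg15, Usp18 and Xaf1 lines 1 and 2 stand above the other MEF-1 lines, and Gbp2, Irgm1 and Psmb8 lie higher in MEF-2.

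Each parental line, measured once, was compared with the range of its own clones. The MEF-1 parental line lay below all 7 of its clonal lines in 16 of 36 genes (44.4%), against 20.8% of all genes, and above them in 0 of 36, against 20.2% of all genes. The 16 genes were Ddx58, Irf1, Irf9, Isg15, Ifit1, Ifit2, Ifit3, Mx1, Mx2, Oasl1, Parp14, Gbp3, Gbp7, Igtp, Psmb8 and Psmb9. Ifit1 stood at 7.16 in the MEF-1 parental line, against 7.84 in its lowest clone, and Mx2 at 3.43 against 4.54. The MEF-2 parental line lay below all of its clones in 12 of 36 genes (33.3%), against 18.5% of all genes, and above them in 4 (11.1%), against 15.8% of all genes. Ddx58, Irf1, Ifit2 and Psmb9 lay below all clones in both sets. The 4 genes above all MEF-2 clones were Dhx58, Cmpk2, Oas1a and Oasl1, with Cmpk2 at 5.16 against 4.90 in the highest clone. A parental line has 1 library, so these differences have no replicate check.

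Of the interferon genes, 4 were looked at. Ifna4, Ifnl3 and Ifng were listed at the same 0 in every line. Even genes close to free of reads differed slightly between lines, so this constant 0 is not a level to set against other genes. Ifnb1 ran from −1.77 to −1.75 in 14 lines, values that cannot be told from no reads. MEF-1 lines 3 and 7 stood apart from these at −1.58, still a low level, and their read counts are unknown. Of the 31 upstream genes of the pathway (interferons, receptors, kinases, sensors' adaptors, regulators), 27 were in the fit. Of these, 15 passed the test (55.6%, against the 56.1% of all genes). MEF-1 was higher in 13 of the 27 (against 28.6% of all genes) and MEF-2 in 2 (against 27.5%). The adaptor Mavs, through which RIG-I and MDA5 signal, ran from 10.9 to 11.3 in MEF-1 clonal lines and from 9.57 to 9.78 in MEF-2 (difference −1.47 ± 0.06 SE, adjusted p = 7.8e-11, limma). Receptor genes Ifnlr1, Ifngr1 and Ifnar2 had differences of −2.08, −0.77 and −0.24, and the kinase Jak2, on chromosome 19, had −0.57. Irf8, Irf2, Tmem173 (STING), Cgas, Pias1, Traf3, Myd88 and Ptpn11 were also higher in MEF-1, and Il10rb and Jak1 in MEF-2, by 0.30 and 0.24. Over the pairs of upstream genes the median r in MEF-1 was 0.029. Line 1 was highest in 3 and line 2 in 11 of 27, against 15.96% and 17.66% of all genes.

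Of 49 further interferon-responsive genes, 48 were in the table, 46 in the fit, and 23 passed the test, against 56.1% of all genes. MEF-1 was higher in 17 of the 46 (against 28.6% of all genes) and MEF-2 in 6 (against 27.5%). The GTPases Gbp6, Irgm2 and Gbp9 had differences of −2.39, −1.60 and −0.95, Ifit3b and Ifit1bl1 on chromosome 19 had −1.76 and −1.49, and the DNA-binding Ifi204 had −1.76. Tapbp, H2-D1 and B2m, of MHC class I presentation, had −1.11, −0.92 and −0.37, while H2-K1, Tap2 and Nlrc5, of the same process, had 0.10, −0.19 and 0.23 and did not pass the test. Gbp5, Ifi205, Epsti1, Uba7, Shisa5, Isg20, Tor3a and Ifitm2 made up the rest of the 17. Lgals9 (galectin-9) was higher in MEF-2 by 2.98, with 6.39 to 7.96 in MEF-1 and 9.26 to 10.4 in MEF-2. The immunoproteasome subunit Psmb10, Samd9l, Dtx3l, Psme1 and Parp9 were higher in MEF-2 by 0.74, 0.61, 0.58, 0.21 and 0.21. Among the MEF-1 clones, line 1 was highest in 9, line 2 in 13 and line 6 in 16 of these 46 genes. The shares of all genes were 15.96%, 17.66% and 14.22%. The median r over pairs of the 46 genes was 0.18 in MEF-1 and 0.165 in MEF-2.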

How the data were processed

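Total RNA-sequencing of 16 lines was used, 2 parental and 14 clonal. Per the submitters' processing notes, reads were trimmed with Trim Galore 0.6.0 and quantified with Salmon 1.5.2 against mm10. The authors deposited log2 values made with the rlog transformation of DESeq2 1.24.0, 1 per gene and line. How transcripts were summed into genes is not given in the sources used here. No counts were analysed, so depth is unknown, and shrinkage draws low genes towards their average. All 16 line names had a sample (0 without one), and 0 pairs of lines held identical values.

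Genes were matched to GENCODE mouse release 21 (mm10 coordinates). A limma 3.58.1 model compared 7 MEF-1 with 7 MEF-2 clonal lines in R 4.3.3 (trended variance prior) over 15285 protein-coding genes with an average above 0, and Benjamini-Hochberg adjusted p-values under 0.05 counted as passing. Chromosome medians used the genes whose average passed the 40th percentile. Ranges, SDs, correlations and parental comparisons were descriptions without a test. All 39 genes are named, with values in every line for the largest differences and SDs, and the passing genes of both further lists are named. The genes and the lists were chosen with earlier results of these data known. In simulated data limma called 175 of 200 shifted genes and 14 others among 15285. Promoters came from RefSeq, where 9 of the 39 genes had no window. Of 49 further interferon-responsive genes, Mnda was not matched. Alternatives covered the variance prior, filters, chromosome dosage, centring, pairing by clone number and the lines included. Python 3.11.15 with pandas 2.3.3, numpy 2.4.6 and matplotlib 3.10.9 was used. The result of 1 upstream gene and of 1 promoter motif is not reported here.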

Additional observations from a re-analysis of the deposited data

Results flagged for a closer look

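Of 72 sets of 7 clonal lines examined (36 genes in each parental set), 5 had 1 line set apart from the other 6 by more than Dixon's 95% limit, where chance alone gives 3.6. Usp18 stood at 6.42 in MEF-2 line 4, with the next line at 5.75. Rsad2 stood at 2.03 in the same line, with the next at 1.65, and the median of its chromosome in this line was 0.315 above the mean of the 14 clonal lines. Oasl1 stood at 1.41 in MEF-2 line 5, with the next at 1.20 and the other 6 lines at its lowest level. In MEF-1, Ifit2 stood at 12.35 in line 1, with the next at 11.8, and the median of its chromosome in this line was 0.187. Psmb8 stood at 8.20 in MEF-1 line 6, with the next at 7.15.

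The clonal lines of Oasl1 lay on opposite sides of their parental line. All 7 MEF-1 clonal lines were above it, by 0.310 on average, and all 7 MEF-2 clonal lines were below it, by 0.256 on average (−0.256). The difference was not tested, since each parental line has 1 library, and 6 of the 7 MEF-2 clonal values lay at the lowest level of the gene.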

How the results depend on the processing

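The count of interferon-stimulated genes that passed the test was 13 of 35, against 8573 of all 15285 genes. With genes above the 40th percentile only, it was 10 of 30, against 7760 of 13123. It was 11 of 35 with chromosome medians taken away, where Ifit2 and Ifit3 dropped out, against 8686 of 15284. Without MEF-1 lines 1 and 2, an alternative added after seeing the data, it was 17 of 35, against 8067 of 15285. No other alternative gave fewer than 13 or more than 15. Without a filter on the average, Oas1g, Oas2 and Oas3 were fitted too and did not pass. All 13 passed whichever single clonal line was left out. Of all 15285 genes, 8026 to 8673 passed with 1 clonal line left out. Leaving out 1 clonal line at a time gave 13 to 15 passing genes of 35, 13 to 17 upstream genes of 27 and 22 to 27 further genes of 46. It gave a median difference of −0.246 to −0.134, median SDs of 0.470 to 0.532 in MEF-1 and 0.245 to 0.293 in MEF-2, and median r of 0.563 to 0.684 and 0.129 to 0.201. Without MEF-1 lines 1 and 2 the median difference was −0.052, the median SD of MEF-1 was 0.305 and its median r was 0.349. Those lines held the top pair of MEF-1 values in 24 of 36 genes, so leaving them out moves these figures by construction. Clone numbers do not pair the sets, since same-numbered clones come from different cells and their deviations correlated by −0.133 to 0.2, with only clone 5 closest to its own number, and with the replicate block 13 genes passed.

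Signs turned only in genes that passed in neither fit. With the chromosome median taken away Irf1 had −0.028 and Ifi27 −0.463, and with the lines centred Irf1 had −0.003. Without MEF-1 lines 1 and 2, Irf1 had −0.008, Stat2 0.068, Isg15 0.190, Trim25 0.005 and Bst2 0.086. Leaving out 1 line gave −0.042 to 0.048 for Irf1, −0.031 to 0.299 for Ifi27, −0.145 to 0.162 for Gbp3 and −0.245 to 0.045 for Psmb9. The cause was not tested. Without counts, small differences of low genes cannot be resolved.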
